A study of Mus musculus with 44 samples.

Results

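Among organoid cells treated with RANKL, a small set of wells carried UMIs (unique molecular identifiers, each counting 1 captured transcript) of Edn1, Anxa3, Clu and Thbs1 and little Lgr5. A well entered the set when it held at least 1000 UMIs in all, at least 3 summed UMIs of those 4 genes and fewer than 3 UMIs of Lgr5, on a plate of days 4 to 9 of RANKL. Of 3832 wells with 1000 or more UMIs on those days, 261 met the rule (6.81%), out of 8231 such wells in the whole series. They were set against the 2341 wells of the same plates in which the 4 genes had no UMI. Another 1051 wells had 1 or 2 of these UMIs, and 179 wells had 3 or more but also 3 or more of Lgr5, so that the Lgr5 limit removed 40.7% of the 440 wells that reached the sum.

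Clu (clusterin, a secreted chaperone) and Anxa3 (a calcium-dependent membrane-binding protein) are known markers of injured mouse intestine, where cells that had lost their crypt identity take on genes of the fetal gut epithelium before the crypt is rebuilt. Edn1 encodes the peptide endothelin-1, and Thbs1 encodes the matrix glycoprotein thrombospondin-1. Both are known targets of YAP in several cell types, the co-activator of TEAD transcription factors that the Hippo kinases restrain. Lgr5, a receptor for R-spondin that strengthens Wnt signalling, marks the columnar stem cells at the crypt base.

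All organoids came from the small intestine of 1 female Lgr5GFPDTR/+ mouse, in which an allele of Lgr5 carries a reporter and diphtheria toxin receptor knock-in, so all groups carry a changed allele of a gene that the rule uses. The organoids were kept with 3 µM CHIR99021, an inhibitor of the kinase GSK3, and 1.5 mM valproic acid, a histone deacetylase inhibitor, and then returned to medium with EGF, Noggin and R-spondin. They then received 100 ng/mL RANKL, the cytokine that drives M cell formation. It was given with 40 µM CSRM617, an inhibitor of the transcription factor ONECUT2, or alone. Plates cover days 0 to 6 with CSRM617 (2 plates a day) and days 0 to 9 with RANKL alone (3 plates a day). The doses are those of the arm, and day 0 stands for the state before RANKL. Viable cells were sorted by light scatter, without a marker, into plates of 384 wells, and 3′ ends were counted with molecular identifiers. Whether the plates of a day held separate cultures is not given in the labels, and the p-values below therefore reflect plate-to-plate spread that may be technical. No plate of a later day without RANKL was analysed here.

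The 14 RANKL+CSRM617 plates had 24 to 223 kept wells and 47976 to 835772 UMIs each, and the 30 RANKL plates had 26 to 282 kept wells and 155940 to 1640523 UMIs. Wells that met the rule were deeper than wells with a sum of 0, with a median of 4491 against 3935 UMIs and of 2176 against 1989 genes, and their median was higher on 14 of the 15 plates that had at least 5 of them. Those 15 plates, all of days 5 to 9, held 255 rule wells (7 to 36 a plate) and 2174 sum-0 wells (78 to 194 a plate), and carried the comparisons of genes. No doublet caller was run because wells were sorted singly, and 2 rule wells exceeded their plate's median depth more than 3 times. Plates reuse the same well positions, and no pair of wells had equal counts.

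The 4 genes had all been used to choose the wells, and their values in them are given as a description. On GRCm38 they lie at chr13:42301476-42307990 (Edn1), chr5:96793339-96845966 (Anxa3), chr14:65968483-65981547 (Clu) and chr2:118111876-118127133 (Thbs1), all on the plus strand. Clu was found in 169 of the 261 wells, Anxa3 in 142, Edn1 in 137 and Thbs1 in 101. The summed UMIs were spread almost evenly, with 432 for Clu, 411 for Thbs1, 405 for Edn1 and 382 for Anxa3. Most wells combined genes: 122 had 2 of the 4, 62 had 3 and 14 had all 4, while 63 reached the sum on 1 gene alone. Clu with Anxa3 was the most frequent pair, in 110 wells (42.1%), and Anxa3 with Thbs1 the least frequent, in 42 (16.1%). The median sum was 5 UMIs and the highest 42. Over the 15 plates, the lowest, median and highest level in rule wells was 49.2, 350.3 and 576 CPM for Edn1, 120.0, 341 and 652 CPM for Anxa3, 117, 376 and 1018 CPM for Clu, and 117, 362 and 1579 CPM for Thbs1, where CPM are UMIs scaled to an equal total and sum-0 wells have 0 by definition. Just inside the limit, 80 wells had a sum of 3, and just outside it, 179 wells with fewer than 3 UMIs of Lgr5 had a sum of 2.

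The mix of genes shifted with the day. On day 5, Thbs1 supplied 51.7% of the summed UMIs of 30 wells, against 21.2% on day 6 (97 wells), 31.95% on day 7 (23 wells), 26.7% on day 8 (38 wells) and 13.6% on day 9 (67 wells). Anxa3 supplied 13.2% on day 5, 21.6% on day 6, 13.02% on day 7, 37.2% on day 8 and 31.4% on day 9. Wells with 2 or more of the genes were most common on the 2 days with most rule wells, at 82.5% on day 6 and 86.6% on day 9, and least common among days 5 to 9 on day 7, at 56.5%.

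The 4 genes were put together with earlier results of these data known, so the values below describe them and are no independent test. Each gene was measured in wells chosen by the other 3 genes. Anxa3 was higher there than in wells with no UMI of the other 3, by 3.104 ± 0.22 (log2 fold change ± SE, adjusted p = 6.35e-15 in edgeR's quasi-likelihood test, plates as blocks). Clu was higher by 2.07 ± 0.20 (adjusted p = 1.62e-11) and Edn1 by 1.665 ± 0.21 (adjusted p = 2.78e-08) in the corresponding edgeR fits. Among all genes, 1.85%, 3.18% and 2.84% were called higher in those 3 fits. Thbs1 did not pass the filter on low counts. Without the filter it was higher by 2.61 ± 0.19 (edgeR adjusted p = 6.52e-40) in wells chosen without it. That unfiltered fit called 120 of 19642 genes higher, and the fit with the filter called 4.44% higher.

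Promoters of Edn1 and of 3 genes described below are shown because YAP acts through TEAD factors and because genes of the AP-1 family (Fos, Fosl2, Jun, Junb) were among those that rose. They are RefSeq windows on GRCm38.p6, 250 bases before to 50 after the start, on the strand of the gene, and capitals mark matches on either strand to GGAATG, the core recognised by TEAD, or to TGANTCA, the AP-1 element. Edn1 lies at chr13:42301226-42301525 (+), Anxa2 at chr9:69453433-69453732 (+), Cldn4 at chr5:134946885-134947184 (-) and Emp1 at chr6:135362681-135362980 (+).
Edn1: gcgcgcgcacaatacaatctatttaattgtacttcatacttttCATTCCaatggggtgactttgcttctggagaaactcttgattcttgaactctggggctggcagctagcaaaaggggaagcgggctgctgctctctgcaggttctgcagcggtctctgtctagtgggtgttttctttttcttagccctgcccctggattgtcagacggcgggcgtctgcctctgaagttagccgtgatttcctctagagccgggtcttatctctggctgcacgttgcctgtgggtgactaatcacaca
Anxa2: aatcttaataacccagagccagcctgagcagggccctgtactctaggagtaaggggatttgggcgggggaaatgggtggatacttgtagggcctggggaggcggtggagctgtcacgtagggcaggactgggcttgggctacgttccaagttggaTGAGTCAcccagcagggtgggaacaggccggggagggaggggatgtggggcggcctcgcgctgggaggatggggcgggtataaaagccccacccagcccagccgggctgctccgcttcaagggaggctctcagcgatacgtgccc
Cldn4: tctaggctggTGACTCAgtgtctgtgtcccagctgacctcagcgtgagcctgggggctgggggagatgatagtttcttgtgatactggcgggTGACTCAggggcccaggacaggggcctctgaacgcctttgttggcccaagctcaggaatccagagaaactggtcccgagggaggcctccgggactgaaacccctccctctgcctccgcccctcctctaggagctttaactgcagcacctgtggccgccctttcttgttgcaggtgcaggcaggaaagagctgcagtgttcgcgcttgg
Emp1: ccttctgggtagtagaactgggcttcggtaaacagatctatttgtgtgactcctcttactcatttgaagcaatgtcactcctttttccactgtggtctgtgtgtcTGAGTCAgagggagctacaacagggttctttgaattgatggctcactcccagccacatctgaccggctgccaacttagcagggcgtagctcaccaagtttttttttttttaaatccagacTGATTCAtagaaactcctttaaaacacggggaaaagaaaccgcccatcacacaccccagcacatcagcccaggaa
Edn1 held 1 TEAD match and no AP-1 match, Anxa2 held 1 AP-1 match, and Cldn4 and Emp1 held 2 each, with no window shown holding both motifs. The windows of S100a6, Areg, Btc and Tnfrsf12a, which also rose, held neither motif and are not printed. Among the genes that rose in rule wells, 120 of 155 had a promoter in the table: 11 of these held an AP-1 match (9.17%), against 6.33% of the lower genes with a promoter, 4.37% of tested genes and 7.93% of all promoters. A TEAD match was in 15 of the 120 (12.5%), against 10.1% of the lower genes, 10.7% of tested genes and 14.6% of all promoters. These matches describe letters in a window and not sites that were bound. Promoters of Anxa3, Clu, Thbs1 and Krt19 are named only.

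Across days, the share of rule wells on a plate was high on day 1, day 6 and day 9. It was 0.146 ± 0.252% on day 0 (SD, n = 3 plates for each day), 9.77 ± 0.377% on day 1, 6.30 ± 2.77% on day 2, 2.24 ± 1.04% on day 3 and 3.19 ± 3.13% on day 4. It was then 4.80 ± 0.612% on day 5, 12.6 ± 2.06% on day 6, 2.93 ± 0.294% on day 7, 4.66 ± 2.16% on day 8 and 10.5 ± 1.85% on day 9. Day 4 rested on 197 wells, 6 of which met the rule. The plates of day 6, at 11.3%, 11.6% and 15%, lay above every plate of days 4, 5, 7 and 8, and so did the plates of day 9, at 8.52%, 10.8% and 12.2%.

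Because the rule counts UMIs, deeper wells reach it more easily, so each well was also thinned to 2000 UMIs. The day 1 share was then 1.98 ± 0.580%, while day 6 had 7.92 ± 1.12% and day 9 had 8.89 ± 1.19%. Days 5, 7 and 8 had 3.44 ± 0.941%, 2.43 ± 0.917% and 2.31 ± 1.49%. Over the 18 plates of days 4 to 9 the share did not follow the day in a line that passed the test, with Pearson's r = 0.318 (permutation p = 0.199, adjusted p = 0.199) and Spearman's rho = 0.248 (permutation p = 0.326, adjusted p = 0.326). Adjustment was over the shares with and without thinning, and thinned shares gave r = 0.454 (adjusted p = 0.121, permutation test) and rho = 0.411 (adjusted p = 0.188). Without the 2 day 4 plates farthest from the median day, r was 0.290. The days did differ: a permutation test of the one-way F statistic over the 6 days, added after the shares had been seen, gave F = 13.3 (p = 0.00052) and, thinned, F = 19.5 (p = 0.00033, adjusted p = 0.00052 for both). Without the Lgr5 limit the linear relation passed, with r = 0.560 (permutation p = 0.0175). The limit removed 4, 0 and 0 wells on the plates of day 1, 21, 8 and 17 on day 6, and 12, 30 and 27 on day 9. The order of the days is thus that of the rule, Lgr5 limit included, and not of the 4 genes alone.

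**Figure D1:**
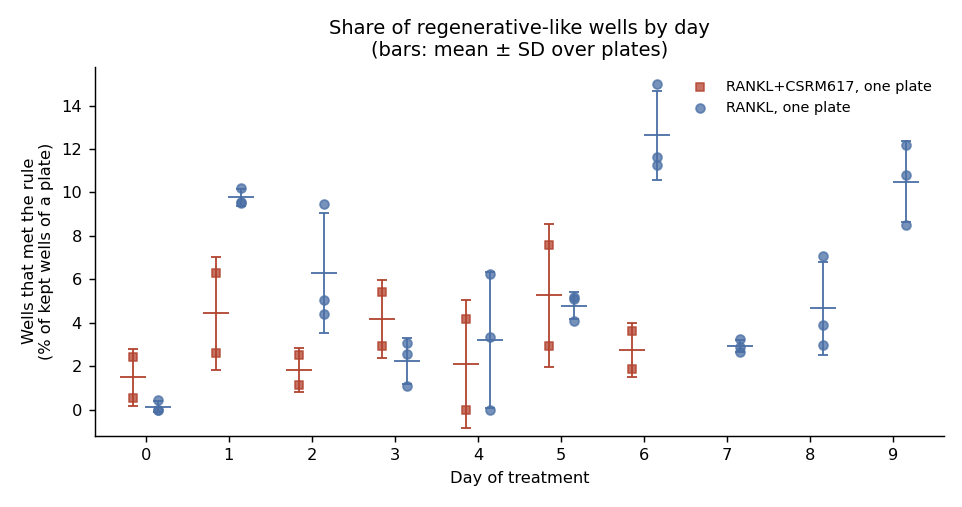
Percentage of kept wells of each plate that met the rule (y) by day of treatment (x), for RANKL+CSRM617 (squares) and RANKL (circles), with the mean ± SD over plates. The RANKL means are highest on day 6 (12.6%), day 9 (10.5%) and day 1 (9.77%), and lowest on day 0 (0.146%).

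The summed level of each gene over all kept wells of a plate, in CPM (UMIs scaled to an equal total for each plate), was high on days 6 and 9 for Edn1, Anxa3 and Clu, and differed between the genes on the early days. Edn1 had 9.02 ± 3.12 CPM on day 0, 58.2 ± 14.9 on day 1, 9.42 ± 2.31 on day 2, 137 ± 36.0 on day 6, 26.2 ± 2.00 on day 8 and 128 ± 9.82 on day 9. Clu had 1.11 ± 1.92 CPM on day 0, 17.9 ± 2.80 on day 1, 52.8 ± 21.9 on day 2, 113 ± 20.7 on day 6 and 135 ± 12.2 on day 9. Anxa3 had 7.28 ± 2.39 CPM on day 0, 52.6 ± 4.92 on day 1, 57.4 ± 34.0 on day 2, 81.2 ± 1.91 on day 6 and 134 ± 17.8 on day 9. Among days 0 to 2, Edn1 was thus highest on day 1 and Clu on day 2. Thbs1 had 9.45 ± 4.15 CPM on day 1 and 5.78 ± 7.39 on day 4, then 64.8 ± 32.6 on day 5, 64.5 ± 37.2 on day 6, 35.6 ± 4.07 on day 8 and 54.1 ± 32.3 on day 9, with a wide spread between plates on days 5, 6 and 9.

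**Figure D2:**
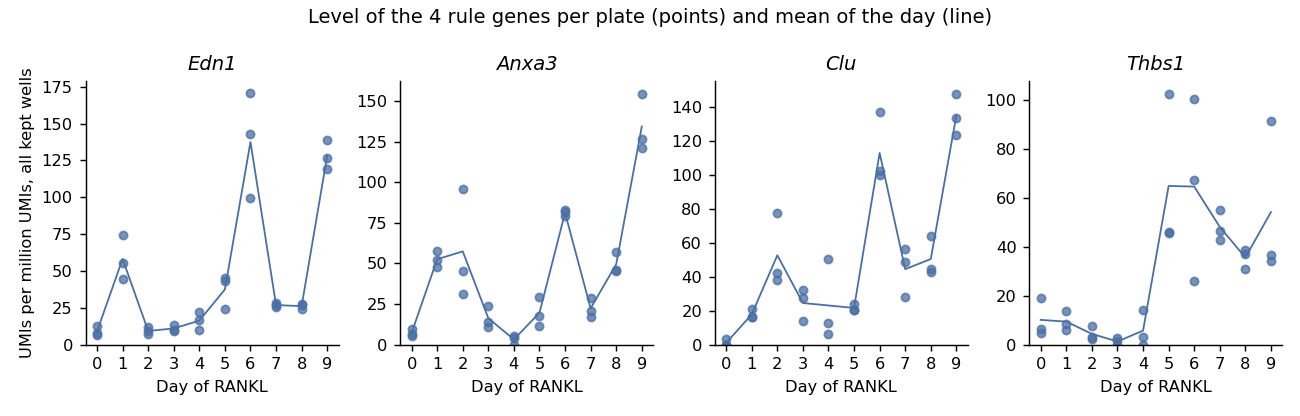
Level of Edn1, Anxa3, Clu and Thbs1 (CPM over all kept wells of a RANKL plate, y) by day (x); points are plates and the line joins the means of days. Edn1, Anxa3 and Clu are high on days 6 and 9, while Thbs1 is near its day 5 level (64.8) on day 6 (64.5).

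Among the genes whose plate level was most like that of the 4 summed rule genes over the 18 plates of days 4 to 9 were Bmp3 (Pearson's r = 0.946), Far1 (0.932), Rapgef5 (0.921) and Ptbp3 (0.919), out of 5476 genes compared. This likeness is across whole plates, which share a day and a library, and is given as a description.

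The main question was what else distinguished the rule wells from sum-0 wells of the same plates. Genes known from fetal-like regenerating epithelium, ligands of the EGF receptor, keratins and actin-binding genes were higher. Enterocyte and goblet cell genes were lower. Crypt stem cell genes were lower too, in a comparison that limits Lgr5 in rule wells only. Of 4151 genes tested, 155 were higher in rule wells (3.73%) and 93 were lower (2.24%), 5.97% in all (edgeR 4.0.16, quasi-likelihood test, adjusted p under 0.05). The median log2 fold change over all tested genes was -0.01. With each well given the same weight (limma), 71 genes were higher and 95 lower, so that higher genes were 42.8% of the calls, against 62.5% when UMIs were summed. Without the plates of day 9, 100 genes were higher and 59 lower.

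Of the list of fetal-like regenerative genes, 23 of 26 were in the table and 9 passed the filter on low counts. Of these, 8 rose and none fell, with a median log2 fold change of 1.06. A gene rare in sum-0 wells could pass that filter through its level in rule wells, and the reverse. A gene rare in both classes could not pass. Counts and medians of this and the other lists may thus be tilted towards genes that differed. S100a6, a small calcium-binding protein, had the lowest adjusted p. It had 410.1, 1224 and 1843 CPM (lowest, median and highest of 15 plates, TMM-scaled) in rule wells, against 173, 286 and 529 CPM in sum-0 wells. Rule wells were higher on all 15 plates although the ranges overlapped, and the log2 fold change was 1.95 ± 0.12 (edgeR adjusted p = 5.72e-17). Areg, which encodes the EGF receptor ligand amphiregulin, had 0, 251 and 748 CPM in rule wells, against 13.7, 38.2 and 76.9 CPM in sum-0 wells. It was higher on 14 of 15 plates and had no UMI in the rule wells of the other one (2.82 ± 0.22, edgeR adjusted p = 2.3e-13).

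Anxa2, a membrane-binding annexin like Anxa3, had 247, 751 and 1354 CPM in rule wells, against 207, 253 and 323 CPM in sum-0 wells, and was higher on 14 of 15 plates (1.62 ± 0.13, edgeR adjusted p = 4.37e-13). Emp1, an epithelial membrane protein, had 20.01, 132 and 323 CPM in rule wells, against 20.4, 40.2 and 102 CPM in sum-0 wells (1.83 ± 0.22, edgeR adjusted p = 4.22e-08). Mal2 (1.06 ± 0.13), S100a10 (0.63 ± 0.11) and the hyaluronan receptor Cd44 (0.59 ± 0.12) also rose, while Ly6e did not pass (0.18, edgeR adjusted p = 0.247). Other annexins that rose were Anxa5 (0.78 ± 0.16) and Anxa7 (0.52 ± 0.16), 3 of 5 tested with Anxa2, while Anxa4 had 0.02 (adjusted p = 0.954) and Anxa13 had 0.29 (adjusted p = 0.128). The call of Anxa7 was lost on 10 of 20 removals of a plate or of a day, with adjusted p-values up to 0.21.

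Several markers of this state were too rare to pass the filter and were not tested with the rest. Ly6a, which encodes the surface protein Sca-1 used to mark the fetal-like state in mouse colon and intestine, had 194 UMIs in 255 rule wells and 81 in 2174 sum-0 wells. On the plates that was 24.2, 149 and 421 CPM (lowest, median and highest) in rule wells, against 1.56, 7.04 and 45.7 CPM in sum-0 wells, with rule wells higher on all 15 plates. Anxa1 had 56 UMIs in rule wells and 25 in sum-0 wells, F3 (tissue factor) had 108 and 130, and Il1rn (the interleukin-1 receptor antagonist) had 75 and 124. In the edgeR fit without the filter, these 4, picked after their values were seen, rose, with log2 fold changes of 3.81 ± 0.23 for Ly6a (adjusted p = 1.73e-56), 3.87 ± 0.38 for Anxa1, 2.33 ± 0.24 for F3 and 1.79 ± 0.27 for Il1rn. In the same fit Msln (0.87, adjusted p = 0.462), Cxadr (0.67, adjusted p = 0.566), Ajuba (0.61, adjusted p = 0.283), Il33 (0.06, adjusted p = 0.983), Gja1 (-1.201, adjusted p = 0.873) and Ereg (-1.46, adjusted p = 0.873), also below the filter, did not pass. The fit without the filter called 117 genes higher and 317 lower of 19610 tested.

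**Figure D3:**
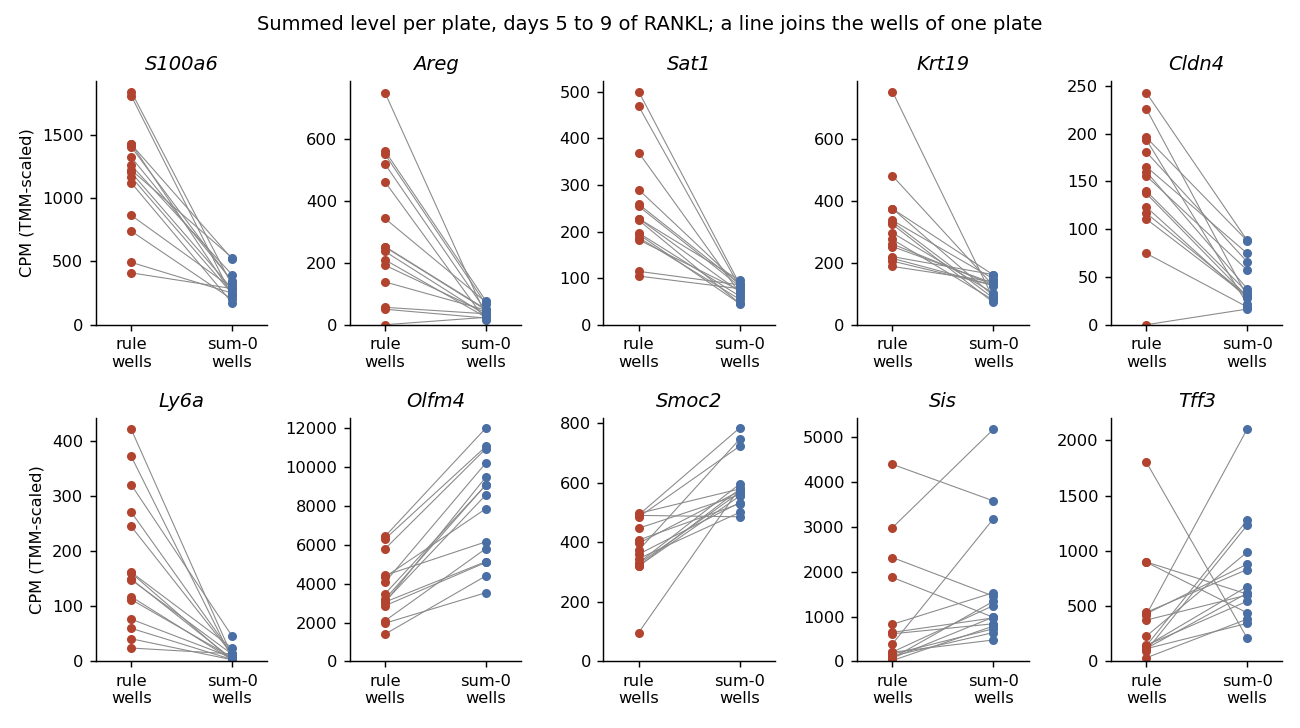
Summed level (TMM-scaled CPM, y) of 10 genes in rule wells (left, red) and sum-0 wells (right, blue) of the same plate, joined by a line, for 15 plates of days 5 to 9. S100a6, Sat1, Krt19 and Ly6a are higher in rule wells on all 15 plates and Olfm4 is lower on all 15, while Sis and Tff3 are higher in rule wells on 3 plates each.

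Genes of EGF signalling rose beside Areg: of 6 tested ligands, receptors and feedback genes, 4 were called higher and none lower. Betacellulin, encoded by Btc, had 0, 90.5 and 267 CPM in rule wells, against 22.2, 44.3 and 69.9 CPM in sum-0 wells (1.33 ± 0.20, edgeR adjusted p = 3.36e-06). The heparin-binding ligand gene Hbegf rose by 1.00 ± 0.22 (adjusted p = 0.00166) and Errfi1, a feedback inhibitor of the receptor, by 0.82 ± 0.19 (adjusted p = 0.00386); without day 7 the adjusted p of Errfi1 was 0.0547. With wells weighted equally, the limma adjusted p was 0.446 for Hbegf and 0.0978 for Btc. The receptors themselves did not pass, with 0.51 for Egfr (adjusted p = 0.246) and 0.07 for Erbb3 (adjusted p = 0.904).

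Of YAP and TEAD targets, 13 of 18 were in the table and 3 passed the filter. Wwc1 (KIBRA, a Hippo pathway scaffold) rose by 0.76 ± 0.18 (edgeR adjusted p = 0.00446), though without the plates of day 6 its adjusted p was 0.164. Amotl2, which binds YAP, had 32.3, 90.5 and 222 CPM in rule wells, against 28.2, 62.8 and 88.6 CPM in sum-0 wells, and rose by 0.68 ± 0.21 (adjusted p = 0.0384), a call lost on 13 of 20 removals of a plate or a day. Tead1 did not pass (0.16, adjusted p = 0.568), and Yap1 had 99.6, 170 and 279 CPM in rule wells, against 140, 190 and 221 CPM in sum-0 wells (-0.00, adjusted p = 0.995). The classical targets Ccn1 and Ccn2, also called Cyr61 and Ctgf, were too rare for the test, with 82 and 48 UMIs in rule wells, against 254 and 41 in sum-0 wells; without the filter they rose by 1.04 ± 0.24 (adjusted p = 0.00151) and 2.82 ± 0.37 (adjusted p = 8.59e-12). Ankrd1, another such target, had 9 UMIs in rule wells and 2 in sum-0 wells. The endothelin receptors Ednra and Ednrb had no UMI in 255 rule wells, and 1 and 3 in 2174 sum-0 wells. No gene of the endothelin pathway list other than Edn1 could be tested.

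Keratins rose as a group, with 5 of 5 tested genes higher and a median log2 fold change of 0.94. Krt19, a simple-epithelium keratin, had 188, 296 and 752 CPM in rule wells, against 71.6, 126 and 161 CPM in sum-0 wells, without overlap between the plates' ranges (1.403 ± 0.16, edgeR adjusted p = 1.6e-08). Krt23 rose by 1.53 ± 0.21, Krt8 by 0.94 ± 0.11, Krt7 by 0.91 ± 0.15 and Krt18 by 0.50 ± 0.11. The tight junction gene Cldn4 had 0, 156 and 243 CPM in rule wells, against 16.4, 30.4 and 88.4 CPM in sum-0 wells (1.75, edgeR adjusted p = 1.48e-09). Of 6 tested genes of epithelium in general, which include Krt8 and Krt18, 3 rose and none fell. Epcam, which all gut epithelial cells carry, had a log2 fold change of 0.01 (adjusted p = 0.98).

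Of 10 tested genes of actin and focal contacts, 8 rose and none fell, with a median of 0.53. Cytoplasmic actin gamma, Actg1, had 2722, 3601 and 4785 CPM in rule wells, against 1995, 2402 and 2696 CPM in sum-0 wells, again without overlap (0.61 ± 0.06, edgeR adjusted p = 1.99e-09). Tropomyosin Tpm1 rose by 0.76 ± 0.09 and Actb by 0.46 ± 0.07. The actin-sequestering thymosin Tmsb4x had 2420, 3721 and 6570 CPM in rule wells, against 1163, 1450 and 2864 CPM in sum-0 wells, and was higher on all 15 plates (1.25, edgeR adjusted p = 3.9e-13). Among genes of thrombospondin binding and matrix contact, 3 of 8 tested rose: the integrins Itgb6 (0.93 ± 0.16) and Itgb1 (0.45 ± 0.09) and the TGF-beta receptor Tgfbr2 (0.84 ± 0.16). Cd47, a receptor of thrombospondin-1, had 0.18 (adjusted p = 0.361).

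Other genes among the 15 largest rises were Sat1, Klf6, Mboat1, Ier3, Tnfrsf12a and Arhgap29. Sat1, an enzyme of polyamine breakdown, had 104, 228 and 500.2 CPM in rule wells, against 45.3, 77.2 and 95.5 CPM in sum-0 wells, without overlap (1.70, edgeR adjusted p = 5.52e-11). Tnfrsf12a, the receptor of the cytokine TWEAK, rose by 1.52 (adjusted p = 2.1e-07), and the early response gene Ier3 by 1.76 ± 0.25 (adjusted p = 1.82e-06). Of immediate early genes, 6 of 10 tested rose, among them Klf6 (1.349 ± 0.13), Zfp36 (0.88 ± 0.19), Junb (0.78 ± 0.15), Fosl2 (0.72 ± 0.15), Fos (0.72 ± 0.22) and Jun (0.41 ± 0.12). Of 5 tested NF-kappaB response genes only Ier3 rose, and of 7 genes of unfolded protein and integrated stress none passed. Of 6 tested p53 targets Plk2 rose (0.74), and Cdkn1a had 0.33 (adjusted p = 0.414).

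Of 13 tested crypt stem cell genes, 9 were lower and none higher, with a median log2 fold change of -0.48. Lgr5 itself is fixed by the rule and not counted. Because the rule limits Lgr5 in rule wells only, this count is not independent of the rule. A count against sum-0 wells under the same limit is not given. Olfm4, a secreted glycoprotein of crypt base cells, had 1403, 3199 and 6439 CPM in rule wells, against 3542, 8583 and 12022 CPM in sum-0 wells, and was lower on all 15 plates (-1.12 ± 0.08, edgeR adjusted p = 3.01e-14). Ascl2, the transcription factor of the stem cell state, had 20.01, 46.8 and 148 CPM in rule wells, against 47.7, 146 and 228 CPM in sum-0 wells, and was lower on all 15 (-1.07 ± 0.20, adjusted p = 0.000146). Smoc2 fell by 0.60 (adjusted p = 2.97e-05).

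The Lgr5 limit applies to rule wells only, and 900 of the 2341 sum-0 wells (38.4%) had 3 or more Lgr5 UMIs. Against sum-0 wells held to the same limit, Olfm4 was still lower, by -0.79 (edgeR adjusted p = 1.64e-08), and so was Ascl2, by -0.84 (adjusted p = 0.0108), while the Wnt target Axin2 no longer passed (-0.29, adjusted p = 0.321, against -0.48 and 0.0274 with all sum-0 wells). S100a6 was higher by 1.73 (adjusted p = 1.6e-14) and Areg by 2.51 (adjusted p = 1.55e-11) in that fit. Of 11 tested Wnt targets, 2 rose, Cd44 and the cyclin Ccnd2 (0.61 ± 0.11), and 2 fell, Ascl2 and Axin2. The receptor Lgr4, a relative of Lgr5, had 0.22 (adjusted p = 0.301).

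Markers of differentiated cells were lower. Of 8 tested enterocyte genes 7 fell, and of 5 tested goblet and Paneth cell genes 3 fell. On removal of a plate or a day, the call of the enterocyte list member Reg3b was lost in 15 of 18 fits that tested it (adjusted p up to 0.262), that of Reg3g in 16 of 20 (up to 0.317) and that of Apoa1 in 2 of 20 (up to 0.193). Sucrase-isomaltase, Sis, had 20.7, 390 and 4391 CPM in rule wells, against 478, 988 and 5171 CPM in sum-0 wells (-1.15 ± 0.24, edgeR adjusted p = 0.00106), with rule wells lower on 12 of 15 plates. Its adjusted p was 0.0507 without wells of other cell types and 0.0725 in wells of 3000 to 8000 UMIs. Fcgbp, a mucus protein, had 0, 49.3 and 574 CPM in rule wells, against 89.3, 279 and 445 CPM in sum-0 wells (-1.83 ± 0.30, adjusted p = 1.95e-05). Tff3, the goblet cell trefoil factor, fell by 1.10 (adjusted p = 0.00816); without the plates of day 6 or of day 9 its adjusted p was 0.155 or 0.281. Spink4 fell by 1.48 (adjusted p = 0.013), and without replicate 2 of day 9 its adjusted p was 0.0588. Without the plate as a block, the adjusted p was 0.483 for Sis, 0.0717 for Tff3 and 0.121 for Spink4. On single plates rule wells carried these markers at high levels, up to 4391 CPM of Sis.

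For M cells, the type that RANKL drives, 1 of 7 tested genes rose (Anxa5) and 1 fell. The chemokine gene Ccl20 had 0, 97.0 and 641 CPM in rule wells, against 37.2, 123 and 892 CPM in sum-0 wells (-0.68 ± 0.15, edgeR adjusted p = 0.00256), and without day 5 its adjusted p was 0.0979. Tnfrsf11a, the receptor of RANKL, had 72.7, 132 and 246 CPM in rule wells, against 136, 189 and 288 CPM in sum-0 wells, and was lower on 14 of 15 plates (-0.51, adjusted p = 0.0145). In wells thinned to equal depth its value was -0.10 (adjusted p = 0.912), and its adjusted p lay between 0.0506 and 0.072 without the plates of day 5, 6, 8 or 9. Spib, a transcription factor of M cells, had 14 UMIs in 255 rule wells and 116 in 2174 sum-0 wells. In the edgeR fit without the filter its log2 fold change was -0.51 (adjusted p = 0.842). Gp2, a receptor of mature M cells, had 1 and 4 UMIs in the same wells. Onecut2 had 224, 592 and 824 CPM in rule wells, against 413, 662 and 784 CPM in sum-0 wells (-0.07, adjusted p = 0.815).

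No tuft or enteroendocrine gene passed the filter, and their summed lists had medians of 0 and 24.9 CPM in rule wells, against 108 and 84.9 CPM in sum-0 wells. Leaving out wells with 3 or more UMIs of a goblet, Paneth, enteroendocrine or tuft list left 86 genes higher and 59 lower on 12 plates, with S100a6 at 1.91 and Krt19 at 1.51. Of 7 markers of non-epithelial cells in the table, none could be tested. Their summed level was 0 to 205 CPM in rule wells (median 0), against 0 to 11.4 CPM in sum-0 wells (median 3.49), and Ptprc, Pecam1, Col1a1 and Vim had no UMI in rule wells. The top value came from 5 UMIs of Acta2 on 1 plate.

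Of 9 tested S phase genes none was called in either direction. Of 10 mitosis genes 2 fell and none rose, with a median of -0.41. Mki67 had 24.7, 194 and 529 CPM in rule wells, against 180, 325 and 559 CPM in sum-0 wells (-0.50, edgeR adjusted p = 0.0367), a call lost on 12 of 20 removals of a plate or a day, and Plk1 fell by 0.88 (adjusted p = 0.0191; 0.0636 without replicate 2 of day 6).

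**Figure D4:**
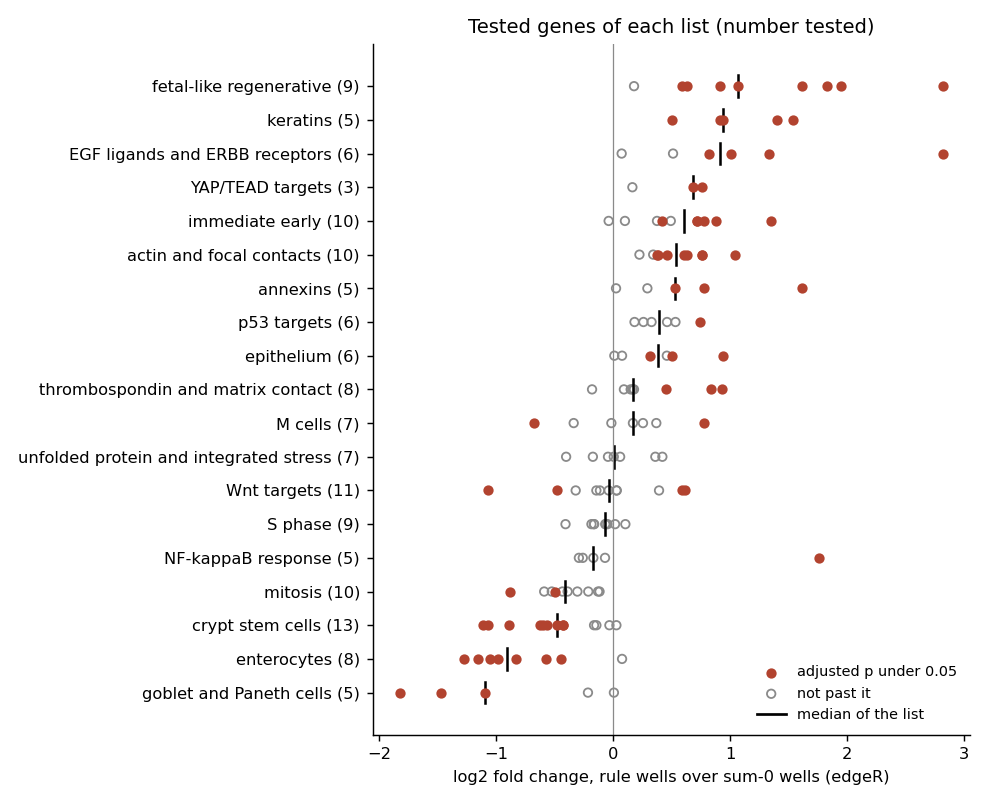
Log2 fold change of rule wells over sum-0 wells (x) for each tested gene of 19 lists (rows, ordered by median), filled where the adjusted p was under 0.05 and open where not; black bars are medians. Fetal-like regenerative genes (median 1.06) and keratins (0.94) lie at the top, and enterocyte (-0.91) and goblet and Paneth genes (-1.10) at the bottom.

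Some of the differences were graded with the number of rule-gene UMIs. Among wells of those 15 plates with fewer than 3 Lgr5 UMIs, pooled S100a6 was 289 CPM at a sum of 0, 458 at 1, 613 at 2, 758 at 3, 1115 at 4 to 6 and 1359 at 7 or more. Areg stood at 43.5, 74.1, 118, 172, 193 and 357 CPM over the same steps. Olfm4 had 5629, 4694, 3672, 4035, 2582 and 2192 CPM, with the value at 3 above that at 2. Other called genes were not stepwise: Smoc2 had 443, 462, 473, 339, 387 and 288 CPM, Ascl2 had 101, 80.5, 90.2, 59.4, 67.1 and 27.7 CPM, and Krt19 had 110 CPM at a sum of 0, 226 at 3, 207 at 4 to 6 and 371 at 7 or more. Median depth also increased, with 3362 UMIs per well at a sum of 0 and 4909 at 7 or more, and its part in the grade was not tested. In wells thinned to 2000 UMIs the log2 fold change between rule and sum-0 wells was 1.78 for S100a6 (edgeR adjusted p = 6.41e-17) and -0.96 for Olfm4 (adjusted p = 1.83e-14). Thinning left 54 genes higher and 32 lower, with 2137 genes tested against 4151 without thinning.

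**Figure D5:**
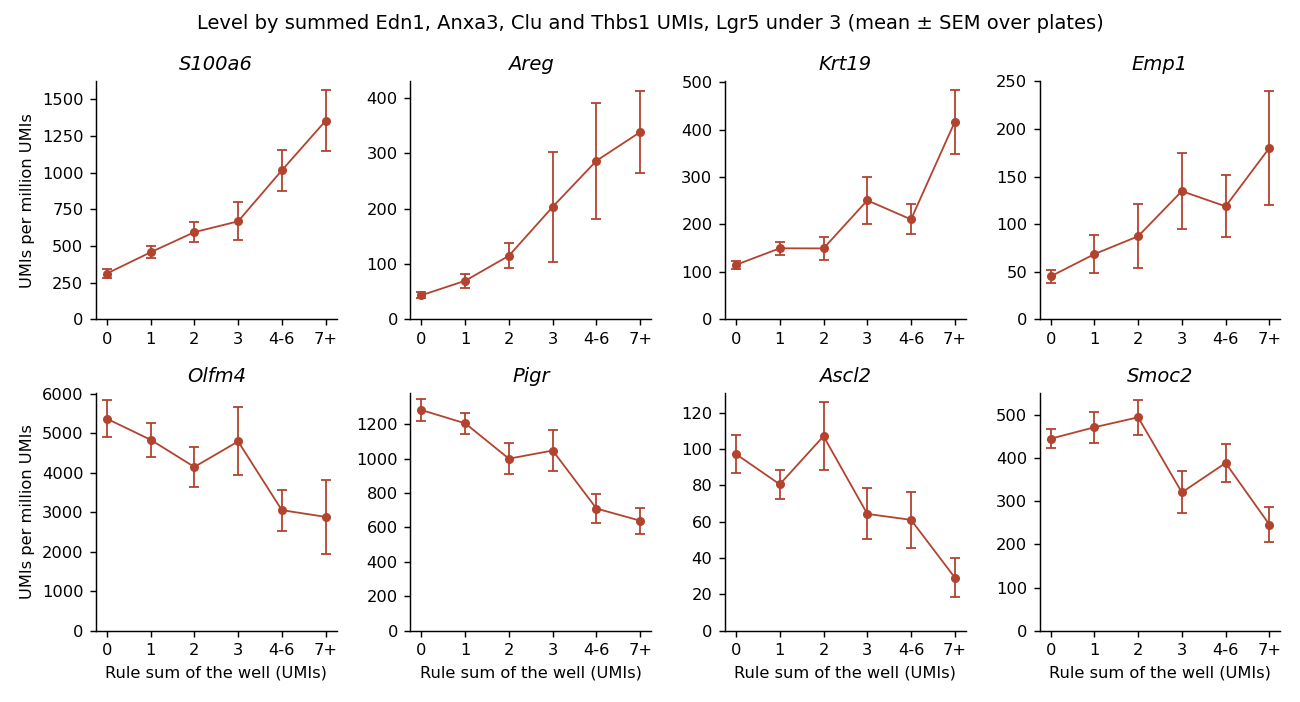
Level of 8 genes (CPM, y, mean ± SEM over plates) by the summed Edn1, Anxa3, Clu and Thbs1 UMIs of a well (x) in wells with fewer than 3 Lgr5 UMIs. S100a6 and Areg are higher at each step from 0 to 7 or more, and Olfm4 and Pigr are lowest at 7 or more.

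Whether the difference between rule and sum-0 wells itself changed from day 5 to day 9 was tested as an interaction. No gene of 5237 passed in edgeR, with 241 at an unadjusted p under 0.05, and none in DESeq2, with 190; without replicate 1 or replicate 2 of day 6, 1 gene was called in each fit. On simulated data of the same design, this fit found 39.4% of changes of 2-fold and 92.5% of changes of 4-fold. The simulated counts held no differences between plates and no spread particular to a gene, so these shares may be too high for the data.

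Rule wells of days 7 to 9 were then compared with those of days 5 and 6, on 9 and 6 plates, since no day 4 plate had 5 rule wells. Of 1177 genes tested, 6 were higher (0.51%) and 5 lower (0.425%) in the later wells. Ccl20, the chemokine that attracts immune cells towards M cells, had 0, 41.0 and 164 CPM in later rule wells, against 221, 317 and 641 CPM in earlier ones, without overlap (-2.36 ± 0.33, edgeR adjusted p = 0.00012). In sum-0 wells it had 37.2, 59.8 and 162 CPM on days 7 to 9, against 238, 613 and 892 CPM on days 5 and 6, also without overlap. Reg3g, an antimicrobial lectin, had 205, 655 and 1373 CPM in later rule wells, against 802, 1961 and 10723 CPM in earlier ones (-2.36 ± 0.41, adjusted p = 0.002). In sum-0 wells Reg3g had 634, 1009 and 1771 CPM on days 7 to 9, against 1797, 2447 and 4110 CPM on days 5 and 6, again without overlap. Both were called on every removal of 1 plate. The higher genes were Gcnt3, Car9, Slc4a4, Ero1l, Tpi1 and Lmo7, with adjusted p-values near the threshold. The number of higher genes was 1 without replicate 1 of day 6, and 0 without replicate 2 or 3 of day 6, 1 or 2 of day 8, or any replicate of day 9. The number of lower genes was 2 or 3 without any 1 plate of day 6 or day 9, replicate 2 of day 7, or replicate 2 or 3 of day 8. Slc4a4, a bicarbonate transporter, had 123, 374 and 508 CPM in later rule wells, against 115, 160 and 230 CPM in earlier ones, and in sum-0 wells it had 96.7, 182 and 247 CPM, against 60.5, 114 and 140 CPM. Car9, a carbonic anhydrase, had 41.0, 387 and 608 CPM in later rule wells, against 62.6, 144 and 298 CPM in earlier ones, and in sum-0 wells 295, 348 and 490 CPM, against 83.1, 195 and 251 CPM without overlap. In all 4 genes the medians of sum-0 wells lay in the same direction as those of rule wells; this was not tested. Slc4a4 was also higher in rule than in sum-0 wells over all days (0.91, edgeR adjusted p = 1.61e-06).

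Wells of days 1 to 3 of RANKL took no part in the rule. The same thresholds gave 134 wells there, and the 9 plates of these days were compared in the same way, a comparison added after the later days had been seen. Of 6641 genes tested, 162 were higher (2.44%) and 232 lower (3.49%), 5.93% in all. Of the 155 genes higher on days 5 to 9, 151 were tested on days 1 to 3 and 133 of them were positive, while 45.7% of all tested genes were. The 2 comparisons shared 59 higher genes, 38.1% of the later list and 36.4% of the earlier one, and 41 lower genes, 44.1% of the later list and 17.7% of the earlier one. A single gene was called in opposite directions.

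S100a6 had 1222, 2326 and 4279 CPM in rule wells of days 1 to 3, against 476, 935 and 1073 CPM in sum-0 wells, without overlap (1.59 ± 0.12, edgeR adjusted p = 1.72e-12). Emp1 had 81.5, 220 and 446 CPM in these rule wells, against 22.2, 47.7 and 67.3 CPM in sum-0 wells (2.39 ± 0.22, adjusted p = 4.89e-10). Ly6a passed the filter here, with 20.4, 171 and 273 CPM in rule wells, against 2.53, 5.80 and 14.8 CPM in sum-0 wells (4.18 ± 0.34, adjusted p = 7.74e-12). Of the fetal-like list, 11 of 13 tested genes rose on these days. Krt19 (1.22 ± 0.13), Cldn4 (1.81 ± 0.27), Tnfrsf12a (2.01 ± 0.22) and Areg (2.03 ± 0.20) rose as well. Enterocyte genes fell in 11 of 15 tested cases, with -3.42 ± 0.45 for Fabp1 and -1.81 ± 0.25 for Sis, and of 11 tested crypt stem cell genes 1 fell, Olfm4 (-0.92 ± 0.18, adjusted p = 0.000717). Of 9 tested goblet and Paneth cell genes 1 rose and none fell, with 0.52 for Tff3 (adjusted p = 0.27), 1.03 for Spink4 (adjusted p = 0.0908) and 0.12 for Fcgbp (adjusted p = 0.893), whose values were negative on days 5 to 9. Whether the values of the 2 periods differ was not tested. Without replicate 2 of day 2, 102 genes were higher and 153 lower, and without replicate 1 of day 1, 152 were lower.

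In the arm with the ONECUT2 inhibitor, few wells met the rule. On days 4 to 6, with wells thinned to 2000 UMIs, 5 of 216 wells met it with RANKL+CSRM617 (2.58 ± 4.53% a plate, SD, n = 6), against 74 of 1428 with RANKL alone (4.24 ± 3.104%, n = 9). The difference of -1.67 percentage points did not pass an exact permutation test within days (p = 0.38, two-sided). It was carried by single plates: it was 0.19 points without replicate 1 of day 5 with CSRM617 (p = 0.92) and -3.52 points without replicate 2 (p = 0.0075, exact permutation). Thinned to 1500 UMIs, the difference was -2.39 points (exact permutation p = 0.03), and without thinning -3.51 points (exact permutation p = 0.082). Median depth on these plates was 1800 to 3311 UMIs with RANKL+CSRM617, against 3443 to 6960 with RANKL. Depth already differed on day 0, with plate medians of 2535 to 3018 UMIs with RANKL+CSRM617, against 4688 to 6470.5 with RANKL. The arms were separate sets of plates, so an effect of the inhibitor cannot be told apart from a difference between those sets. The Lgr5 limit also bore on the arms unequally. Mean Lgr5 on days 4, 5 and 6 was 350, 429 and 421 CPM with RANKL, against 13.3, 7.25 and 0 CPM with RANKL+CSRM617. Before thinning, the limit removed 21, 8 and 17 wells on the day 6 plates with RANKL, and 0 on each day 6 plate with RANKL+CSRM617. A comparison of the arms without the limit is not given.

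In the RANKL+CSRM617 arm, 7 plates of days 1 to 5 had at least 3 rule wells, and 2 of 1905 tested genes were higher (0.105%) and none lower, with 100 genes at an unadjusted p under 0.05. Tmsb4x had 3343, 9219 and 12181 CPM in rule wells, against 1653, 3826 and 5813 CPM in sum-0 wells, and was higher on all 7 plates (1.04 ± 0.19, edgeR adjusted p = 0.00631). Phlda1, an early target of receptor signalling, had 251, 778 and 1122 CPM in rule wells, against 53.1, 212 and 542 CPM in sum-0 wells (1.57 ± 0.29, adjusted p = 0.00631). Both calls were lost without replicate 2 of day 1 (adjusted p = 0.0589) or replicate 2 of day 2 (adjusted p = 0.0622). On days 5 to 9 of RANKL alone Tmsb4x was called higher too, but Phlda1 was not called (0.17, edgeR adjusted p = 0.403). S100a6 had a log2 fold change of 1.16 ± 0.30 (adjusted p = 0.102), with rule wells higher on 6 of 7 plates. Of the 93 genes higher on days 5 to 9 of RANKL that could be tested in this arm, 67 were positive, while 38.7% of all tested genes were.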

How the data were processed

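Single cells of mouse small intestinal organoids were measured by a modified CEL-Seq2 protocol. The values used are raw UMI counts by gene and well as the authors deposited them; the submitters' processing notes name kallisto, bustools, Seurat 3.1.5 and GRCm38. The authors' natural log tables were not used. The shallowest well of the RANKL table held 657 UMIs, and with RANKL+CSRM617 the shallowest held 344 UMIs. Wells with 1000 or more UMIs were kept. There were 21099 genes with RANKL and 9257 with RANKL+CSRM617, without mitochondrial or spike-in rows. All 384 well names recur between RANKL plates, and 0 wells had equal counts.

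Counts were summed per plate and well class, without the 4 rule genes and Lgr5, for plates with at least 5 rule wells (3 with RANKL+CSRM617 and on days 1 to 3). Sums were tested with edgeR 4.0.16 in R 4.3.3 (filterByExpr, TMM, plate as block, quasi-likelihood test, Benjamini-Hochberg over all tested genes, threshold 0.05). The SE is the log2 fold change over the square root of F. DESeq2 1.42.0 and limma 3.58.1 (10 CPM added) served as alternatives. Shares were compared by permutation, with 100000 draws for correlations and exactly within days for arms. On simulated data of the same depth the first comparison recovered 100% of genes changed 2-fold.

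Members and the 25 gene lists were chosen with earlier results of these data known, so list counts are descriptions. Named genes were the 15 largest rises and 10 largest falls with mean log2 CPM at least 5, the 5 largest each way of other fits, up to 4 called genes of each list, and genes of prior interest, of which a selection is given. Genes below the filter, other list members, Fosl2, Jun, Epcam and Ptprc were picked after their values were seen. Motifs were searched in RefSeq windows of 300 bases. Same-numbered plates of different days did not deviate together.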

Additional observations from a re-analysis of the deposited data

Results flagged for a closer look

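Fos, an immediate early gene, rose over the 15 plates of days 5 to 9 (log2 fold change 0.72), but days went in opposite directions. On day 6, rule wells had 25.3, 69.0 and 139 CPM, against 75.6, 116 and 150 CPM in sum-0 wells of the same plates, lower on all 3. On day 7, rule wells had 598, 218 and 820 CPM, against 132, 125 and 208 CPM in sum-0 wells, and on day 8 they had 421, 172 and 162 CPM, against 103, 155 and 150 CPM in sum-0 wells, higher on all 3 plates of both days. The difference between these days was not tested on its own. Fos was not called in the interaction of days 7 to 9 against days 5 and 6, which pooled day 6 with day 5. Its call over all plates was lost on 9 of 20 removals of a plate or a day, with adjusted p-values up to 0.448.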

How the results depend on the processing

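The number of genes called in rule against sum-0 wells moved with several settings. With thinning to 2000 UMIs 54 genes were higher and 32 lower, with wells of 3000 to 8000 UMIs 94 and 48, with a sum of 5 or more 79 and 52, and without wells of other cell types 86 and 59. The numbers of genes tested moved too, with 2137, 2864, 3478 and 2662 in that order, against 4151. Without a filter 19610 genes were tested. Equal weights gave 71 higher, no filter 317 lower and plates with 10 or more rule wells 60 lower. Without the plate as a block 55 were lower, and Reg3g turned to 0.0413 (edgeR adjusted p = 0.993). Leaving out a plate or a day gave 100 to 159 higher and 59 to 94 lower. Of 2079 values of the 65 called named genes under alternatives, 1816 kept the call, 262 lost it and 1 reversed, and 27 genes, S100a6, Areg, Krt19 and Olfm4 among them, were called in every alternative that tested them. The cause of these changes was not tested.

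The interaction of days 7 to 9 against days 5 and 6 gave 6 higher and 2 lower genes without a filter. Without 1 plate it gave 0 to 1 higher and 0 lower. In rule wells of days 7 to 9 against days 5 and 6, the numbers higher and lower were 16 and 29 without a filter (13916 tested) and 1 and 3 thinned (289 tested). They were 22 and 12 with a sum of 2 or more (2391 tested) and 0 and 0 with a sum of 5 or more (1043 tested). In the depth window 3 were higher. In the same comparison of days the replicate block gave 0 and 2. Replicate numbers do not pair the plates (mean correlation 0.000416 within and -0.00022 between numbers). Leaving out 1 plate gave 0 to 7 higher and 2 to 7 lower.

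With RANKL+CSRM617, the numbers were 9 and 32 without a filter (9195 tested), 7 and 5 with a sum of 2 or more (1246 tested) and 0 and 4 with a sum of 5 or more (4304 tested). They were 7 and 15 in the depth window (2175 tested), with 1 higher thinned (722 tested) and 0 without the plate as a block. Leaving out 1 plate gave 0 to 4 higher and 0 to 6 lower. On days 1 to 3, thinning gave 39 higher and 76 lower, DESeq2 137 lower, no filter 430 lower and no replicate block 152 lower; leaving out 1 plate gave 102 to 188 higher and 152 to 247 lower.

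The share by day had r = 0.560 and rho = 0.605 without the Lgr5 limit, and r of 0.210 to 0.414 and rho of 0.123 to 0.322 without 1 plate. The arm difference was -2.39 points thinned to 1500 UMIs, -2.03 with the replicate block (exact permutation p = 0.3125), and -3.52 to 0.186 without 1 plate. Edn1, Anxa3 and Clu, in wells chosen by the other rule genes, kept their calls in each alternative that tested them. Thbs1 was tested without the filter only. The 4 genes were put together with earlier results of these data known, so these calls remain a description.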
